A study of Homo sapiens with 30 samples.

Results

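Complement is a set of plasma and membrane proteins, and its genes are also read in cells of the brain and its tumors. The 9 genes described here are C1R, C1S, C3 and CFB, which make components of the cascade, SERPING1 and CFI, which make secreted regulators, and CD46, CD55 and CD59, which make regulators held in the cell membrane. They were taken by symbol from the 61471 gene rows of each expression table, 1 for the line U87 and 1 for U251, and all 9 were present in both. Both lines come from human glioblastoma, a malignant glial tumor. The lines were exposed to interferon gamma (IFN-γ), a cytokine made mainly by T and NK cells, and RNA was sequenced in bulk. Each line had 5 groups, namely D3, D14 and D28 after 3, 14 or 28 days in IFN-γ, D28WO after 14 days in it and 14 more days out of it, and Untreated with no IFN-γ at all. The sample labels give 30 libraries, 3 per group, with a wild-type genotype in all of them. They give a dose of 1 µg/mL in the protocol and 1 µL/mL in the entries of some libraries, and collect the untreated cells at day 3, whereas the study's methods give another dose and another day. Of the U87 columns, 2 carried the same name and were not used, which left 2 libraries for D3, 2 for D14 and 3 for every other U87 group, and 3 for every U251 group.

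In the classical pathway the proteases C1r and C1s sit on C1q and cut C4 and C2, and in the alternative pathway factor B pairs with C3b to form the enzyme that cuts more C3. C3 is the protein on which both pathways meet. SERPING1 makes the C1 inhibitor, which blocks C1r and C1s, and factor I, made by CFI, cuts C3b with the help of cofactors such as CD46. CD55 speeds the decay of the C3-cutting enzymes on the cell surface, and CD59 blocks the last step, the membrane attack complex. The liver is the main source of most soluble complement proteins, and IFN-γ is known to raise several of these genes in other cell types.

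Values are in TPM, a count of transcripts scaled to a fixed library total, which is a level already divided by transcript length, so that genes can be set beside each other within a library. The files bear out the division by length, since among genes with 1 annotated transcript the 10th percentile of the values above 0 was 0.199 to 0.424 TPM per library at 600 to 1200 bases and 0.0541 to 0.117 TPM at 2400 to 4800 bases. The 100 most abundant genes held 5.68% to 7.76% of a library, which is a flat spread for a transcriptome. A metadata sheet of the study calls the matrices CPM, whereas the tables and labels say TPM, and how TPM was computed is not given in the sources used here. Ranks between genes and the ratios within a library rest on the unit being TPM. The tables do not keep the depth of each library, for which the methods state only a minimum, and no lowest detectable level can be set for a gene at 0. Tests were run within a line only, on log2(TPM + 1). The threshold was a log2 fold change beyond 1 in size together with an adjusted p below 0.05. The tables hold 24223 to 28649 genes above 0 per U87 library and 24450 to 30246 per U251 library, and the U87 Untreated libraries held 24223 to 25459, the fewest of that line. The median log2 fold change of all genes tested against Untreated lay between 0.15 and 0.25 in U87 and between 0.015 and 0.16 in U251.

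Known targets of IFN-γ were read as a check of the labels. In U87 GBP1, a guanylate-binding protein, had a mean of 35.9 TPM in Untreated, 225 at D3, 34.2 at D14, 251.2 at D28 and 221 in D28WO, and IRF1, a transcription factor, had 133, 448, 122, 480 and 510 TPM in the same order. The U87 libraries labelled as 14 days of IFN-γ thus lay at the Untreated level, with a log2 fold change of -0.07 for GBP1, and those labelled as withdrawn lay near D28. In U251 GBP1 was 46.4, 445, 151, 477 and 464 TPM, and IRF1 was 141, 589, 300.3, 603 and 620.1 TPM. D14 of U251 was above Untreated for both, and its withdrawn libraries were again near D28. Whether IFN-γ was still acting in the withdrawn cultures was not tested.

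Glial marker genes were read in each line, and levels of the lines are set side by side without a test, as their tables were normalized separately. GFAP was 1258 TPM in Untreated U251 and 4.84 in Untreated U87, and SOX2 was 159 and 0.219 TPM, while VIM was 1141 and 1307 TPM. S100B was 184 and 1.05 TPM, and NES was 168 and 41.0 TPM, whereas OLIG2 was at 0 in every Untreated library of U251 and at 7.16 TPM in U87. The sum of these 6 glial and progenitor genes moved with the groups in U251, with 2867 to 2954 TPM in Untreated, 1095 to 1312 at D3, 1934 to 2327 at D14, 1169 to 1378 at D28 and 1643 to 1686 in D28WO. In U87 it was 1273 to 1516 TPM in Untreated and 1046 to 1354 TPM in the other groups. The part of these shifts in the complement results was not tested. Of the 6 macrophage and microglia markers, TYROBP was at 0 in every library of both lines and AIF1 in every U87 library, and CD68 made up most of their summed level of 231.7 to 487 TPM in U87 and 86.3 to 176 TPM in U251. The 5 hepatocyte markers summed to 0.873 to 7.31 TPM in U87 and 1.83 to 24.1 TPM in U251, where ALB was highest at D3 with 16.1 TPM. The 4 T and B cell markers stayed at 0.403 TPM or lower in U251 and at 4.61 TPM or lower in U87. The 3 endothelial markers summed to 0.886 to 3.37 TPM in U87, and in U251 to 26.6 to 38.4 TPM in Untreated and 2.45 to 21.4 TPM in the other groups, with CDH5 as the leading gene. In bulk RNA, fewer cells that use a gene and less RNA of it per cell cannot be told apart.

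The promoter table (RefSeq, GRCh38.p14, 250 bases before to 50 bases after each start) held 6 of the 9 genes, with 11 promoters in all. C1S, C3 and SERPING1 were not among them. The promoters were searched on both strands for the letters of the gamma-activated site GAS (TTCNNNGAA), the interferon response element ISRE (GAAA, any 2 bases, GAAA) and a κB site (GGGA, any 2 bases, TTCC). These occurred in 7.66%, 3.57% and 1.61% of all 35116 promoters of this length, and in at least 1 promoter of 9.38%, 4.38% and 1.97% of their 27305 genes. The letters of GAS stood in promoters of C1R, CFB and CD59, those of ISRE in CFB only, and those of κB in none of the 11. The windows below show the match in capitals. They are printed because 2 of their genes had RNA above Untreated in treated groups and 1 had RNA below it. They lie at chr12:7091961-7091989 (minus strand), chr6:31945993-31946021 (plus strand), chr6:31945945-31945974 (plus strand, with the ISRE letters on the other strand) and chr11:33736589-33736617 (minus strand), in this order.
C1R GAS: gccagtcctaTTCCTGGAAggggagggga
CFB GAS: cgcttggatgTTCCGGGAAagtgatgtgg
CFB ISRE: acttctgcagTTTCTGTTTCcttgactggc
CD59 GAS: ccacccggccTTCTCAGAAcctgggccag
The first base of the match lay 86 bases before the start of 1 C1R promoter and 92 (GAS) and 140 (ISRE) bases before the start in CFB. In CD59 it lay 184 or 128 bases before the starts of 2 overlapping promoters. The other C1R promoter (chr12:7092396-7092695) held no match. The other CD59 promoters (chr11:33722678-33722977 and chr11:33722900-33723199) held none either. A match of letters is a description of the sequence. No match was found in the promoters of CD46, CD55 and CFI within these windows.

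On GRCh38 with GENCODE release 44, C1S (chromosome 12, 6988259 to 7071032, plus strand) and C1R (7080214 to 7092540, minus strand) are neighbors with their ends 9181 bases apart, and C1R shares 2954 bases with C1RL on the same strand. CFB (chromosome 6, 31945650 to 31952086) overlaps C2 by 24 bases and lies inside a read-through gene of both. CD55 (207321519 to 207386804) and CD46 (207752037 to 207795513) lie on chromosome 1, CD59 (33703010 to 33736479) and SERPING1 (57597387 to 57619171) on chromosome 11, CFI (109731008 to 109802150) on chromosome 4 and C3 (6677704 to 6730562) on chromosome 19. Reads that fall in the shared stretches of C1R or CFB cannot be assigned to 1 gene with certainty. The spans of C1S, C3, CFI, CD46 and CD59 also overlap other annotated genes on the same strand, where the same limit can apply.

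**Figure D1:**
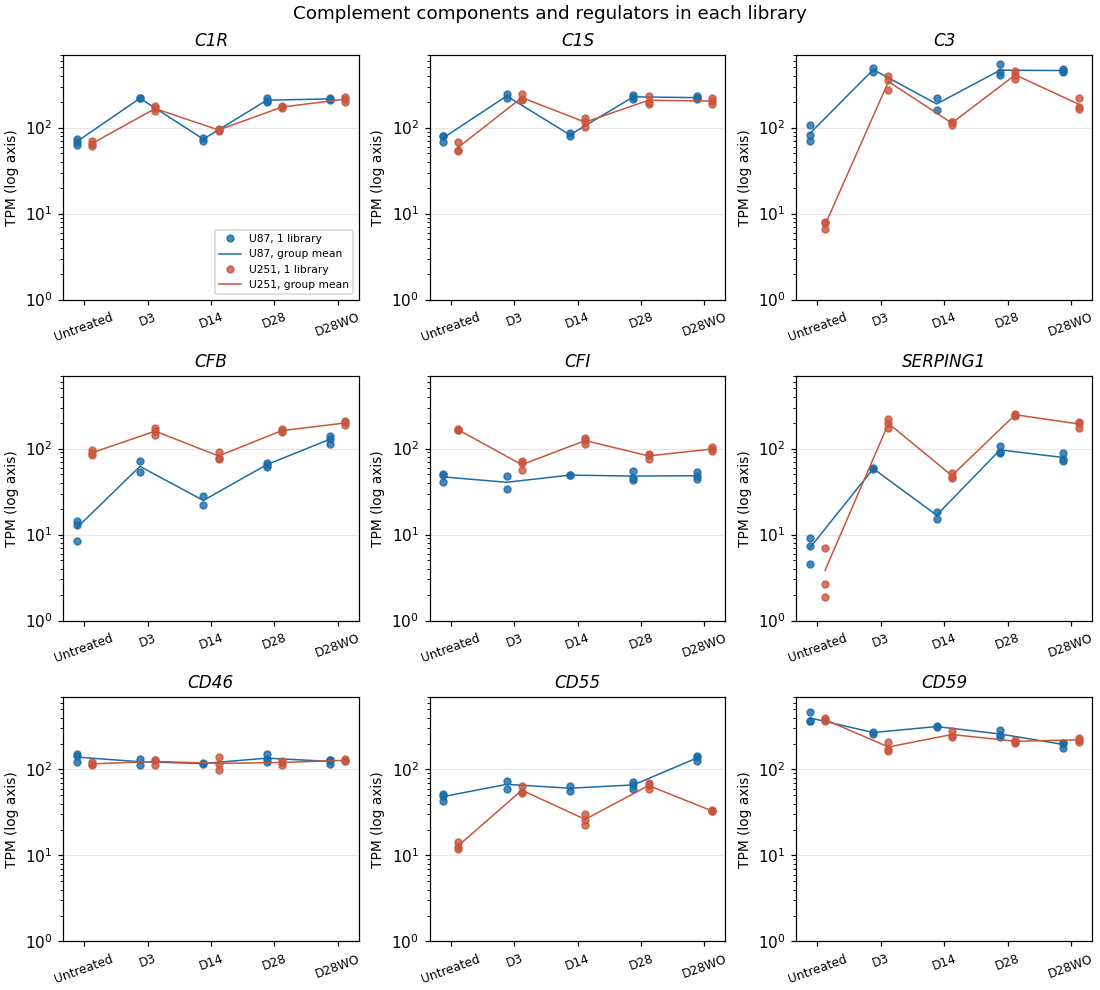
Level of each of the 9 genes in TPM (log axis) in the 5 groups of U87 (blue) and U251 (red). Points are single libraries and lines join the group means. C1R, C1S, C3, CFB and SERPING1 dip at D14 in both lines, and CD46 stays between 98.3 and 153 TPM in every library.

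Without IFN-γ the membrane regulators CD59 and CD46 were the most abundant of the 9 in U87. CD59 led with 398 ± 53.8 TPM (SD, n = 3), followed by CD46 with 139 ± 15.4 TPM. C3 (85.4 TPM), C1S (75.8) and C1R (68.3) came next with overlapping libraries, then CD55 (48.4) and CFI (46.8), which overlapped as well, and last CFB (11.9) and SERPING1 (6.99). In U251 CD59 also led (380 ± 13.8 TPM), but CFI was second with 165 ± 2.12 TPM, and C3 (7.41 TPM) and SERPING1 (3.83 TPM) were at the bottom with overlapping libraries. At D28 C3 stood at the top of both lines, with 465 ± 70.5 TPM in U87 and 411 ± 45.0 TPM in U251. SERPING1 was then second in U251 with 247 ± 6.09 TPM and sixth in U87 with 96.5 ± 10.1 TPM.

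The question of the time course was how IFN-γ changes the cells early, late and after it is removed. In U87, 5 of the 9 genes were higher than in Untreated at D3 (C1R, C1S, C3, CFB and SERPING1) and 0 were lower, where 5.85% of all genes tested were higher and 0.384% lower. At D14 the 3 that passed were C3, CFB and SERPING1, against 1.89% of all genes, and none was lower (0.209% of all genes). This count went to 1 with quantile normalization or median-ratio size factors, and to 0 in a fit of only the 2 compared groups. At D28 the same 5 as at D3 were higher again, against 6.77% of all genes, and 0 lower (0.611%). In D28WO these 5 and CD55 were higher, 6 against 12.8% of all genes, and CD59 was lower, 1 against 2.12%. In the order D3, D14, D28 and D28WO the 9 genes had median log2 fold changes of 1.61, 0.12, 1.58 and 1.55, beside 0.20, 0.15, 0.19 and 0.25 for all genes tested. At an unadjusted p under 0.05 (limma), CD59 was the 1 gene lower at D3, at D14 and at D28, where 8.06%, 5.1% and 10.3% of all genes tested were lower.

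In U251, 5 genes were higher at D3 (C1R, C1S, C3, SERPING1 and CD55) and 2 were lower (CFI and CD59), where 9.72% of all genes were higher and 4.55% lower. C3 and SERPING1 were the 2 that were higher at D14 (4.72% of all genes), and 0 were lower (1.04%). At D28 the same 5 as at D3 were higher (11.9% of all genes) and CFI was the 1 that was lower (3.35%). In D28WO the 5 and CFB made 6 that were higher (4.07% of all genes), and 0 were lower (3.38%). The medians of the 9 genes were 1.34, 0.52, 1.40 and 1.28 in the 4 groups, beside 0.13, 0.096, 0.16 and 0.015 for all genes tested. At an unadjusted p under 0.05 (limma), 2 genes, CFI and CD59, were lower at D14 and in D28WO, where 11.4% and 18% of all genes tested were lower. The 4 comparisons of a line share the same Untreated libraries.

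**Figure D2:**
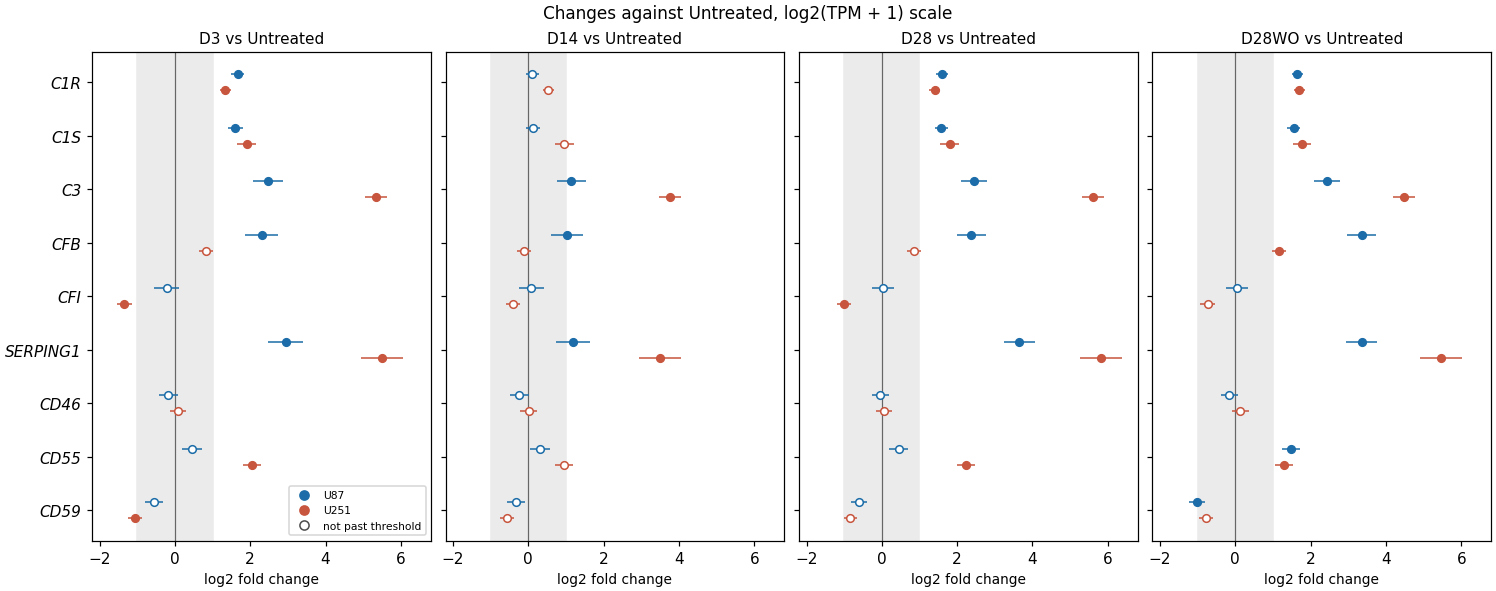
Log2 fold change of the 9 genes against Untreated on the log2(TPM + 1) scale for D3, D14, D28 and D28WO, in U87 (blue) and U251 (red). Bars are 95% confidence intervals from limma, filled points passed the threshold, and the grey band marks changes of less than 1. C3 and SERPING1 lie farthest to the right in U251, above 5 at D3.

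C1R and C1S rose at D3, D28 and in D28WO in both lines. In U87 C1R was 63.1, 68.1 and 73.8 TPM in the Untreated libraries, 218 and 220 at D3, 70.4 and 76.5 at D14, 199, 204 and 220 at D28, and 208, 217 and 223 in D28WO. Every D3, D28 and D28WO library was above every Untreated one, and the D14 libraries overlapped Untreated. C1R rose by a log2 fold change of 1.67 ± 0.08 (SE) at D3 (limma, adjusted p = 1.66e-07), or 3.21-fold in group means, and its value at D14 was 0.10 ± 0.08 (adjusted p = 0.467). C1S was 67.5 to 80.6 TPM in Untreated U87 libraries, 222 and 244 at D3, 79.2 and 85.5 at D14, 218 to 237 at D28 and 218 to 231 in D28WO. It rose by 1.61 ± 0.09 at D3 (adjusted p = 4.43e-07) and by 1.58 ± 0.08 at D28 (adjusted p = 1.12e-07).

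In U251 C1R was 60.7, 64.9 and 69.6 TPM in Untreated, 155, 167 and 177 at D3, 91.7, 94.4 and 95.4 at D14, 168, 174 and 177 at D28, and 197, 217 and 228 in D28WO. Here the D14 libraries lay above Untreated and below all others, without overlap. C1R rose by 1.34 ± 0.07 at D3 and by 1.70 ± 0.07 in D28WO (limma, adjusted p = 3.19e-09 and 3.25e-10). C1S of U251 was 53.6, 55.1 and 68.7 TPM in Untreated, 210, 213 and 247 at D3, 102, 115 and 130 at D14, 189, 201 and 234 at D28, and 189, 203 and 218 in D28WO. Its rise was 1.90 ± 0.11 at D3, and 0.96 ± 0.11 at D14 stayed just under the fold limit (adjusted p = 5.76e-05), which it passed without Untreated replicate 2 (1.07) or D14 replicate 3 (1.04). The ratio of C1S to C1R within a library, both per length, had group means of 1.03 to 1.12 in U87. In U251 it was 0.792 to 1.06 in the Untreated libraries and 1.27 to 1.39 at D3, without overlap, and 0.871 to 1.03 in D28WO.

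C3, the central component, had a wide span of levels in U251. Its Untreated libraries held 6.62, 7.72 and 7.90 TPM, those of D3 276, 355 and 397, those of D14 107, 116 and 116, those of D28 367, 407 and 457, and those of D28WO 167, 172 and 222. No treated library came near the Untreated ones, and D14 and D28WO each lay below D3 and D28. The log2 fold changes against Untreated were 5.34 ± 0.13 at D3, 3.76 ± 0.13 at D14, 5.61 ± 0.13 at D28 and 4.47 ± 0.13 in D28WO (limma, adjusted p = 2.88e-12, 3.30e-10, 1.37e-12 and 1.64e-11). C3 fell by 1.58 from D3 to D14 and rose by 1.85 from D14 to D28.

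C3 of U87 was among the more abundant members already in Untreated cells. The Untreated libraries held 69.0, 81.3 and 106 TPM, those of D3 447 and 497, those of D14 158 and 218, those of D28 411, 440 and 545, and those of D28WO 440, 460 and 482. D14 was above Untreated in each library and below all of D3, D28 and D28WO, which overlapped each other. C3 rose by 2.47 ± 0.18 at D3 and by 2.44 ± 0.16 at D28 (limma, adjusted p = 3.32e-06 and 1.13e-06). At D14 the change was 1.13 ± 0.18 (adjusted p = 0.00824), which is 0.99 relative to the median of all genes. The D14 call was lost without Untreated replicate 3 (0.99, limma, adjusted p = 0.0258) or without D14 replicate 2 (0.90), where D14 rested on 1 library. It was also lost with median-ratio size factors (0.96) and in a fit of only the 2 compared groups (1.13, limma, adjusted p = 0.151).

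CFB, which makes the protease of the alternative pathway, rose at D3, D28 and in D28WO in U87, and its D14 call depended on the fit. Its level there was 8.48, 12.9 and 14.3 TPM in Untreated, 52.6 and 71.4 at D3, 22.1 and 27.8 at D14, 61.7, 65.2 and 67.5 at D28, and 113, 131 and 142 in D28WO. The D28WO libraries were above all others, and every other treated library was above Untreated. CFB rose by 2.30 ± 0.20 at D3, by 1.03 ± 0.20 at D14, by 2.38 ± 0.18 at D28 and by 3.35 ± 0.18 in D28WO (limma, adjusted p = 1.53e-05, 0.0178, 3.09e-06 and 1.44e-07). Relative to the median of all genes the D14 value was 0.88. Leaving out Untreated replicate 1, D14 replicate 2 or D14 replicate 3 took the D14 call away, with values of 0.82, 0.87 and 1.19. So did quantile normalization (0.73), median-ratio size factors (0.86) and a replicate block (0.99). In a fit of only the 2 compared groups the value was the same and the call was lost (limma, adjusted p = 0.175).

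In U251 CFB began at 83.8, 88.0 and 95.1 TPM and was 144, 160 and 174 at D3, 75.7, 78.0 and 92.2 at D14, 156, 159 and 170 at D28, and 186, 201 and 208 in D28WO. Its D14 libraries overlapped Untreated, and all other treated libraries were above them. The values of 0.83 ± 0.09 at D3 and 0.86 ± 0.09 at D28 stayed under the fold limit (limma, adjusted p = 3.97e-06 and 2.93e-06). In D28WO CFB passed it with 1.15 ± 0.09 (adjusted p = 2.78e-07).

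SERPING1, the gene of the C1 inhibitor, had the lowest mean of the 9 in Untreated cells of both lines, with libraries that overlapped those of CFB in U87 and of C3 in U251. In U87 it was 4.53, 7.43 and 9.02 TPM in Untreated, 57.8 and 59.1 at D3, 15.04 and 18.5 at D14, 89.8, 91.6 and 108 at D28, and 72.3, 74.6 and 88.8 in D28WO. All treated libraries were above Untreated, with D14 between Untreated and the rest. SERPING1 rose by 2.94 ± 0.21 at D3 and by 3.65 ± 0.19 at D28 (limma, adjusted p = 3.18e-06 and 1.65e-07), and by 1.19 ± 0.21 at D14 (adjusted p = 0.0129), or 1.04 relative to the median of all genes. The D14 call was lost without Untreated replicate 3 (0.94), D14 replicate 2 (1.05) or D14 replicate 3 (1.33). Quantile normalization (0.84) and a fit of only the 2 compared groups (1.19, limma, adjusted p = 0.185) took it away as well.

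In U251 SERPING1 was 1.86, 2.65 and 6.98 TPM in Untreated, 172, 198 and 218 at D3, 45.7, 47.0 and 52.6 at D14, 242, 246 and 254 at D28, and 172, 200 and 206 in D28WO. The lowest treated library was above the highest Untreated library at every time. It rose by 5.49 ± 0.26 at D3, 3.50 ± 0.26 at D14, 5.83 ± 0.26 at D28 and 5.47 ± 0.26 in D28WO (limma, adjusted p = 1.62e-09, 6.90e-07, 7.87e-10 and 2.30e-09). Among the Untreated libraries replicate 1 stood apart at 6.98 TPM.

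CFI, the protease that inactivates C3b, did not follow the components. The U251 levels were 163, 165 and 167 TPM in Untreated, 55.6, 67.8 and 71.2 at D3, 114, 125 and 131 at D14, 75.2, 84.1 and 86.8 at D28, and 92.6, 100 and 104 in D28WO. Each treated library was below each Untreated one, least so at D14. CFI fell by 1.34 on the log2 scale at D3 (SE 0.09, limma, adjusted p = 4.91e-08) and by 1.00 at D28 (SE 0.09, adjusted p = 8.19e-07), and the latter sits on the fold limit. It slipped under that limit without Untreated replicate 3 (-0.99) or D28 replicate 1 (-0.94).

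In U87 CFI was 41.0 to 50.5 TPM in Untreated, 33.6 and 47.4 at D3, 48.9 and 49.3 at D14, 43.3 to 54.3 at D28 and 44.02 to 52.9 in D28WO. Every treated group overlapped Untreated, and both D14 libraries lay inside its range. The intervals of its log2 fold change were -0.55 to 0.12 at D3, -0.26 to 0.41 at D14, -0.27 to 0.33 at D28 and -0.25 to 0.35 in D28WO (95%, limma), and its sign changed with the normalization at D14, D28 and D28WO.

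CD55, the decay-accelerating factor, rose in D28WO in both lines and also at D3 and D28 in U251. The U251 libraries held 12.02, 12.6 and 14.5 TPM in Untreated, 53.3, 54.8 and 64.2 at D3, 22.9, 26.0 and 30.1 at D14, 58.9, 65.7 and 70.4 at D28, and 32.5, 32.8 and 33.7 in D28WO. All treated libraries were above Untreated, and D14 and D28WO lay between it and the 2 high groups. CD55 rose by 2.06 ± 0.11 at D3, 2.24 ± 0.11 at D28 and 1.28 ± 0.11 in D28WO (limma, adjusted p = 6.24e-09, 2.52e-09 and 1.15e-06), with 0.96 ± 0.11 at D14 (adjusted p = 4.16e-05). The D14 value passed the limit without Untreated replicate 3 (1.03) or D14 replicate 2 (1.05).

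In U87 CD55 was 43.6, 49.4 and 52.1 TPM in Untreated, 60.0 and 74.4 at D3, 56.3 and 64.8 at D14, 59.5, 66.8 and 72.2 at D28, and 126, 140 and 142 in D28WO. The withdrawn libraries stood above all the others, while D3, D14 and D28 overlapped each other just above Untreated. The values of 0.46 at D3 and 0.44 at D28 (SE 0.12 and 0.11, limma, adjusted p = 0.0259 and 0.0141) were under the fold limit. CD55 rose by 1.47 ± 0.11 in D28WO (adjusted p = 1.88e-06).

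CD59, the inhibitor of the membrane attack complex, was lower in the treated groups of both lines. U251 libraries had 365, 380 and 393 TPM in Untreated, 166, 173 and 209 at D3, 240, 243 and 282 at D14, 206, 210 and 221 at D28, and 207, 223 and 233 in D28WO. No treated library reached the Untreated range. CD59 fell by 1.06 at D3 (SE 0.08, limma, adjusted p = 3.01e-07), and its values of -0.57 at D14, -0.83 at D28 and -0.78 in D28WO had an adjusted p of 0.000282 or less without reaching the fold limit. Without D3 replicate 1 the D3 value was -0.99.

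In U87 CD59 was 364, 370 and 460 TPM in Untreated, 261 and 276 at D3, 314 and 318 at D14, 237, 253 and 285 at D28, and 179, 202 and 206 in D28WO. The D28WO libraries were the lowest, and no treated library overlapped Untreated. CD59 fell by 1.02 in D28WO (SE 0.10, limma, adjusted p = 1.09e-05), and its values at D3, D14 and D28 were -0.56, -0.33 and -0.62. The D28WO call was lost without Untreated replicate 3 (-0.91) or D28WO replicate 1 (-0.96).

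CD46, the cofactor of factor I, passed the threshold nowhere. Its Untreated libraries held 122, 144 and 152 TPM in U87 and 112, 115 and 121 TPM in U251, and the treated libraries ranged from 113 to 153 TPM and from 98.3 to 139 TPM. Treated and Untreated libraries overlapped in U87 at D3 and D28, and the D14 libraries lay below Untreated with 115 and 119 TPM. In U251 the 3 D28WO libraries (124, 126 and 133 TPM) lay above Untreated, with a log2 fold change of 0.13 (95% interval -0.08 to 0.35, limma). The 95% interval of the log2 fold change was -0.43 to 0.08 at D3 in U87 and -0.13 to 0.31 at D3 in U251, and the interval with the widest reach was -0.50 to 0.02, at D14 in U87. A change of 1 on the log2 scale lay outside all of the intervals against Untreated.

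From D3 to D14 the 5 induced genes of U87 all fell, where 2.05% of all genes tested were lower and 0.576% higher, and 0 of the 9 rose, also at an unadjusted p under 0.05 (limma, 7.51% of all genes tested). In a fit of D3 and D14 alone all 5 calls were lost, at the same log2 fold changes (adjusted p = 0.07495 to 0.144). The changes were -1.57 for C1R, -1.49 for C1S, -1.34 for C3, -1.27 for CFB and -1.75 for SERPING1 (limma, adjusted p = 1.19e-06, 2.76e-06, 0.0017, 0.00506 and 0.000835). From D14 to D28 the same 5 rose, against 1.78% of all genes higher and 0.332% lower, by 1.49, 1.46, 1.31, 1.35 and 2.46. In a fit of D14 and D28 alone C3 lost this call (adjusted p = 0.0737). Both contrasts use the 2 D14 libraries, and IRF1 and GBP1 moved the same way in them. The call of CFB from D3 to D14 was lost without D3 replicate 2 (-1.06, limma, adjusted p = 0.0763) or D14 replicate 3 (-1.12, adjusted p = 0.0675). With the D14 libraries left out of the fit, a choice made after seeing the data, the counts against Untreated at D3, D28 and D28WO were 5, 5 and 7 in U87 and 7, 6 and 6 in U251, as with them.

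In U251, 3 genes fell from D3 to D14 (3.29% of all genes were lower and 3.19% higher). These were C3 (-1.58), SERPING1 (-1.99) and CD55 (-1.10), and the same 3 rose from D14 to D28 (4.23% of all genes higher, 1.6% lower) by 1.85, 2.33 and 1.28. C1R, C1S and CFB had values of -0.82 to -0.95 and then 0.84 to 0.98, with an adjusted p of 0.000138 or less in each case (limma). CFB passed from D3 to D14 without D3 replicate 1 (-1.02) or D14 replicate 1 (-1.04) and from D14 to D28 without D14 replicate 1 (1.06), and C1S passed from D3 to D14 without D14 replicate 2 (-1.03). CFI and CD59 had values of 0.93 and 0.48 from D3 to D14 (limma, adjusted p = 5.77e-06 and 0.000825), under the fold limit, and each of their D14 libraries was above D3.

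The withdrawn cells can be set against cells kept in IFN-γ to D28 and against D14, the point at which it was removed. Against D28, 1 gene was higher in U87, CD55 with 1.03 ± 0.11 (limma, adjusted p = 0.00017), where 3.11% of all genes were higher, and 0 were lower (2.42% of all genes). CFB was nearly as much above D28, with 0.97 ± 0.18 (adjusted p = 0.00316), and C1R, C1S and C3 had values of 0.06, -0.03 and -0.00 with 95% intervals of -0.10 to 0.21, -0.20 to 0.14 and -0.35 to 0.34. The CD55 call was lost without D28 replicate 2 (0.95) or D28WO replicate 2 (1.00, just under the limit), while CFB passed without D28 replicate 3 (1.00, just over it) or D28WO replicate 2 (1.06). In U251, C3 was the 1 gene that fell against D28, by 1.14 (SE 0.13, limma, adjusted p = 3.22e-05), where 8.14% of all genes were lower, and 0 were higher (1.12% of all genes). CD55 was at -0.95 ± 0.11 there (adjusted p = 2.78e-05), and it passed with -1.02 without D28 replicate 3. The other 7 U251 values lay between -0.36 and 0.30.

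Against D14, 6 genes were higher in D28WO of U87 (C1R, C1S, C3, CFB, SERPING1 and CD55), where 6.3% of all genes were higher, and 0 were lower (3.39% of all genes). In U251, 3 were higher (C1R with 1.18, CFB with 1.27 and SERPING1 with 1.97), where 1.78% of all genes were higher, and 0 were lower (5.38%). In U251 every D28WO library of SERPING1, C1R and C1S lay above Untreated and above D14. In U87 C1R and C1S were near the Untreated level at D14, when IFN-γ was taken away, and their D28WO libraries lay above it, as did those of SERPING1. C3 of U251 was at 187 ± 30.6 TPM in D28WO, between 113 ± 5.45 TPM at D14 and 411 ± 45.0 TPM at D28.

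**Figure D3:**
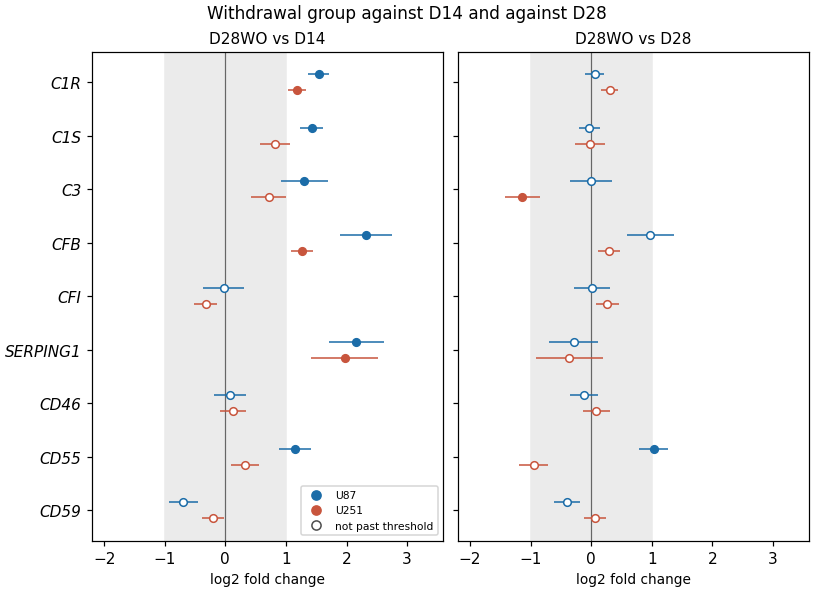
Log2 fold change of the 9 genes in D28WO against D14 (left) and against D28 (right), on the log2(TPM + 1) scale, for U87 (blue) and U251 (red). Bars are 95% confidence intervals from limma, filled points passed the threshold and the grey band marks changes of less than 1. Against D28 the filled points are CD55 of U87 at 1.03 and C3 of U251 at -1.14.

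If the unit is TPM, which is per length, the RNA levels of pairs of members can be set against each other within a library. The balance of their proteins was not tested. SERPING1 was 0.103 ± 0.0383 of C1R in Untreated U87, 0.267 at D3, 0.228 at D14, 0.463 at D28 and 0.365 in D28WO. In U251 it went from 0.0576 ± 0.0378 of C1R in Untreated to 1.17 at D3, 0.517 at D14, 1.43 at D28 and 0.901 in D28WO, so that at D3 and D28 SERPING1 was above C1R in each of the 3 libraries. Against C1S, the other protease it blocks, it was 0.878 (0.818 to 0.930) at D3 and 1.201 (1.03 to 1.34) at D28 in U251. C3 was 1.87 ± 0.626 times CFI in Untreated U87 and 11.9, 3.83, 9.81 and 9.61 times in the 4 treated groups. In U251 it was 0.0450 ± 0.00463 times CFI in Untreated and 5.27, 0.916, 5.00 and 1.89 times later. The ratio of CD59 to CD55 was 8.35 ± 1.94 in Untreated U87 and lowest in D28WO with 1.45 ± 0.162. It was 29.3 ± 1.82 in Untreated U251 and lowest there at D3 and D28 with 3.22 and 3.29. These ratios were not tested and restate the levels above.

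**Figure D4:**
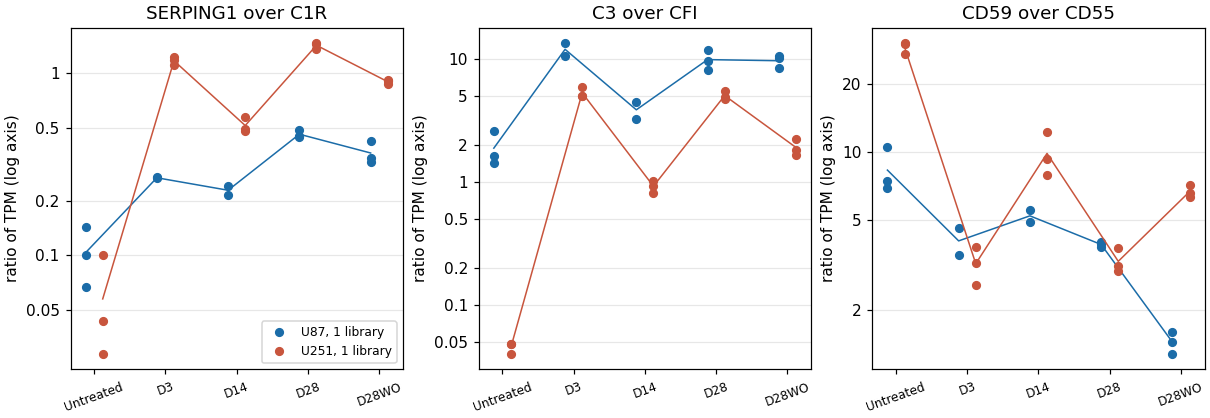
Ratios of TPM within a library (log axis) for SERPING1 over C1R, C3 over CFI and CD59 over CD55, in the 5 groups of U87 (blue) and U251 (red). Points are single libraries and lines join the group means. The U251 ratio of C3 to CFI runs from 0.0450 in Untreated to 5.27 at D3.

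Correlations between the members are given as a description over 13 libraries of U87 and 15 of U251, which share their groups. C1R and C1S had a Pearson r of 0.989 and 0.945, and C3 and SERPING1 of 0.970 and 0.974 on log2(TPM + 1). CD59 ran against C3, with -0.861 and -0.926, and against CD55, with -0.891 and -0.911. CFI had -0.131 with C3 in U87 and -0.873 in U251, and 0.931 with CD59 in U251 against 0.0645 in U87. CD46 had no r beyond 0.362 in size with any other member.

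For each member the 2 genes with the most similar pattern were taken from the 20473 genes tested in both lines, ranked by the lower of the r values of the lines. C1R was closest to BTN3A1 (lower r 0.982) and TAP1 (0.978), C1S to GBP1P1 (0.985) and GBP1 (0.984), and SERPING1 to APOL6 (0.984) and IFIH1 (0.983). C3 was closest to IFIH1 (0.971) and SERPING1 (0.970), and CFB to C4B (0.951) and MMAA (0.950). The membrane regulators had other neighbors. CD55 was closest to BDNF (0.967) and PPP1R15A (0.961), and CD59 to GNAI2 (0.974) and RPL7A (0.961). CFI and CD46 had no close match, since their best values were 0.674 (JAGN1) and 0.570 (RAB5C).

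Of 50 other complement genes, 23 passed the filter of a mean of 0.5 TPM in U87 and 25 in U251, and 4 and 5 were at 0 in every library. Those past the threshold against Untreated in U87 were 6 at D3, 0 at D14, 8 at D28 and 10 in D28WO, all of them higher, beside 5.85%, 1.89%, 6.77% and 12.8% of all genes tested that were higher. In U251, 9 were higher and 2 lower at D3, 2 and 1 at D14, 13 and 1 at D28, and 5 and 1 in D28WO. Of all genes tested in U251, 9.72%, 4.72%, 11.9% and 4.07% were higher and 4.55%, 1.04%, 3.35% and 3.38% lower in these comparisons. At D14 of U87, where limma called 0, the value of C1RL, a gene that shares bases with C1R, was 0.72 with an adjusted p of 0.00197, the 1 with an adjusted p under 0.05. At an unadjusted p under 0.05, 7 of the 23 were higher there and 2 lower, beside 17.9% and 5.1% of all genes tested.

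C2, the protease that pairs with C4b, was 0.641 to 1.57 TPM in Untreated U87, 24.0 and 25.1 at D3, 2.28 and 2.34 at D14, 13.7 to 17.7 at D28 and 37.5 to 45.7 in D28WO. Its rise in U87 was 3.71 ± 0.21 at D3 and 4.44 ± 0.19 in D28WO (limma, adjusted p = 8.13e-07 and 3.46e-08). In U251 C2 was 1.07 to 3.38 TPM in Untreated and 45.4 to 51.0 at D28, a rise of 4.05 ± 0.25 (adjusted p = 2.66e-08). C4A and C4B, near-identical copies between which reads can be split wrongly, rose by 1.98 and 2.83 at D3 in U87 and by 1.36 and 1.27 in U251. The chains of C1q, the recognition protein on which C1r and C1s sit, were below the filter in both lines. C1RL itself, a C1r-like protease, rose by 1.52 at D3 in U87 and had 0.35 in U251.

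Among recognition proteins, COLEC12, a scavenger receptor of the collectin family, rose in U251 from 2.02 TPM in Untreated to 14.95 TPM at D28 (2.48 ± 0.25, limma, adjusted p = 2.91e-06), and COLEC11 rose at D3, D14 and D28 to 3.74 TPM or less. MASP1, a protease of the lectin pathway, rose in U87 to 1.69 TPM at D28 and 2.76 TPM in D28WO, and MASP2 rose in U251 at D3 to 8.80 TPM. The Untreated, D3 and D14 libraries of U87 held 0 to 0.526 TPM of MASP1. MASP1 thus reached the filter of a mean of 0.5 TPM only through D28 and D28WO. Of the terminal pathway, C8B and C8G passed at D28 of U251 with 2.81 and 6.23 TPM, and C8B was listed at 0 in Untreated. The D28 libraries held 0.419, 3.77 and 4.24 TPM of C8B, and all other U251 libraries 0.289 TPM or less. C8B thus reached the filter only through D28, and its call rests on the group that let it in. All of these levels except those of COLEC12 and MASP2 were low.

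Among receptors, C5AR1, the receptor of C5a, was 7.79 to 9.60 TPM in Untreated U87 and 92.4 to 109 TPM in D28WO, where it had risen (3.34 ± 0.18, limma, adjusted p = 1.68e-07). In U251 it rose by 2.21 ± 0.20 at D28 (adjusted p = 1.26e-06). CFD, the protease that activates factor B, fell in U251 by 1.32 at D3, 1.31 at D14 and 1.56 at D28 (adjusted p = 0.00634, 0.0136 and 0.0021), from 10.1 TPM in Untreated. C3AR1, the receptor of C3a, rose in D28WO of U87 to 42.3 TPM (1.42 ± 0.17, adjusted p = 6.11e-05) and at D28 of U251 to 8.81 TPM (1.52 ± 0.46, adjusted p = 0.0166). ITGAX, a chain of a receptor for iC3b, rose in U87 at D3 and in D28WO and in U251 at D28, and C5AR2 rose in U87 at D28 and in D28WO. In U251 VTN rose at D3 and D28 to 3.95 TPM or less, and SUSD4 fell at D3 and in D28WO to 1.54 and 1.26 TPM.

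**Figure D5:**
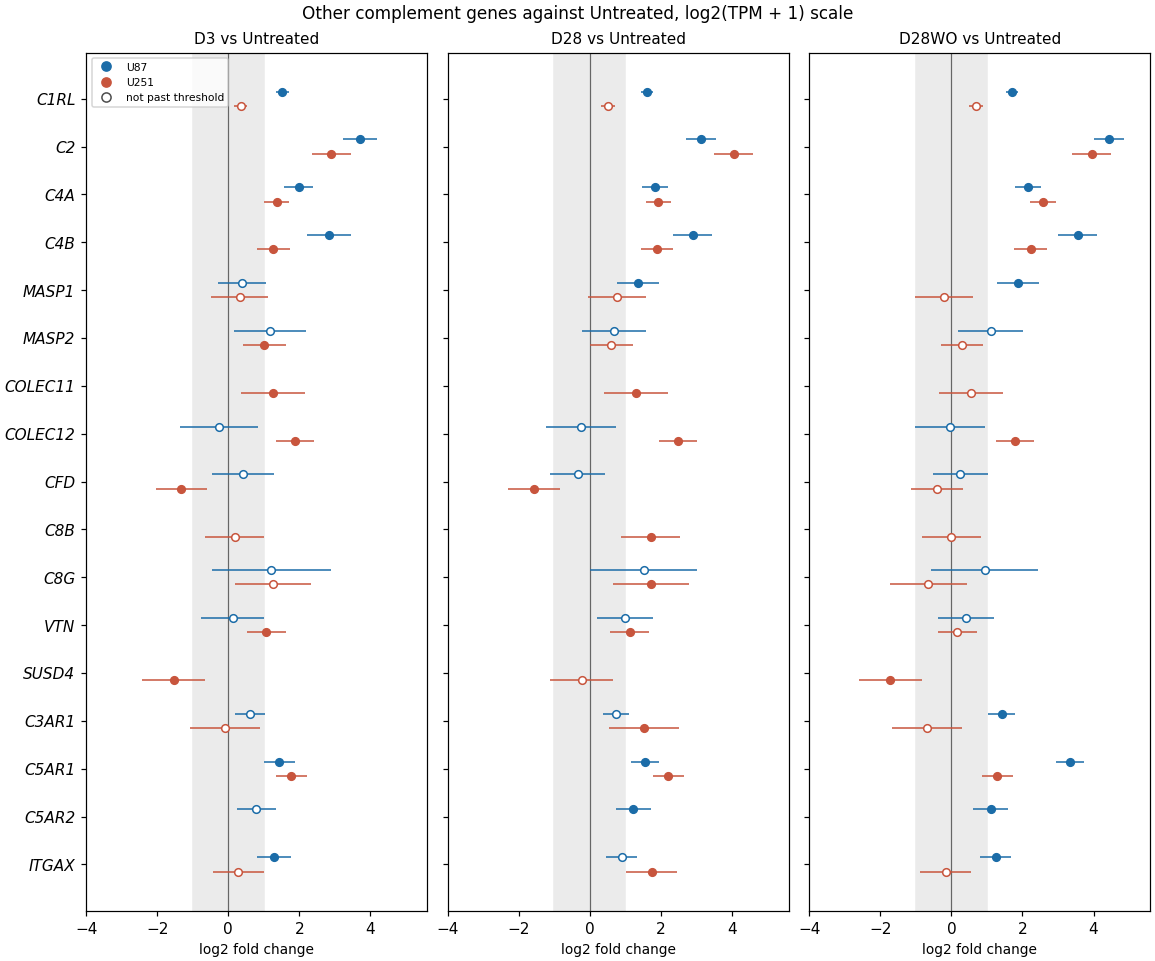
Log2 fold change against Untreated on the log2(TPM + 1) scale for other complement genes past the threshold, at D3, D28 and in D28WO, in U87 (blue) and U251 (red). Bars are 95% confidence intervals from limma, filled points passed the threshold, and a missing point is a gene below the filter in that line. C5AR1 of U87 lies at 3.34 in D28WO.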

How the data were processed

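RNA of 28 libraries of the cell lines U87 and U251 was analysed. Per the study's methods and the submitters' processing notes, reads were checked with FastQC, trimmed with Trim Galore, aligned to GRCh38 with STAR and counted with featureCounts. The authors deposited TPM values, 1 table per line, in which each library sums to 1000000, and how TPM was computed and whether counting used strand are not given in the sources used here. Libraries were grouped by their labels. The replicates are separate cultures according to the methods, which also state that the lines were not authenticated again. The methods state a minimum read depth, but the depth of each library is unknown from the tables, so no counting interval is given. Of the U87 columns, 2 of the same name were not used.

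Tests used log2(TPM + 1) and covered genes whose mean in the line reached 0.5 TPM (22918 in U87, 23667 in U251). For each line 1 model over the 5 groups was fitted with limma (version 3.58.1, R 4.3.3, lmFit and eBayes with trend), 8 contrasts were taken, and p-values were adjusted by Benjamini-Hochberg over the genes tested. The threshold was a log2 fold change beyond 1 in size together with an adjusted p below 0.05. The lines were not tested against each other, as their tables were normalized separately. The procedure was tested on simulated data. The 9 members and the lists of complement and marker genes were chosen with earlier results of these data known. All members are named, of the other complement genes those past the threshold in any contrast with Untreated (some genes are not reported here), and for each member the 2 most similar genes. Alternatives were median-ratio size factors, quantile normalization, array weights, a replicate block, a pseudocount of 0.1, no filter or one at 1 TPM, a fit of just the compared groups, the adjusted p alone, each library left out, and, chosen after seeing the data, the D14 libraries left out. Coordinates come from GENCODE release 44 and promoters from RefSeq (GRCh38.p14). Figures were drawn with matplotlib 3.10.9.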

Additional observations from a re-analysis of the deposited data

Results flagged for a closer look

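In several genes all libraries of a group lay above those of the other group in U87 and below them in U251. The share of all genes tested that do so was not counted. At D3 of U87, 16 of the 23 other complement genes tested had every library above every Untreated one. The differences between the lines were not tested, since the tables were normalized separately. The membrane regulator CD55 was 1.03 (log2 fold change) higher in D28WO than in D28 of U87 and had a value of -0.95 in U251. In TPM, it was 126 to 142 against 59.5 to 72.2 in U87, and 32.5 to 33.7 against 58.9 to 70.4 in U251. The receptor C5AR1 had log2 fold changes of 1.78 in U87 and -0.92 in U251 in the same comparison, from 28.3 to 98.6 TPM and from 17.2 to 8.48 TPM in group means. C3AR1 had 0.67 in U87 and -2.22 in U251, where the withdrawn libraries held 0.795 to 1.40 TPM. At D3 against Untreated, CFD had 0.42 in U87 (1.04 to 2.41 TPM in these libraries), under the fold limit, and -1.32 in U251.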

How the results depend on the processing

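TPM does not keep the depth of a library, so the precision of low values such as SERPING1 in Untreated cells is not known, and U87 at D3 and D14 rests on 2 libraries. Where 1 of them was left out, the lone library was assumed to vary like the other groups. Of 242 recomputed counts of members past the threshold, 224 were within 1.5 times the reported count, and of 2034 recomputed log2 fold changes 1937 kept their direction and side of the threshold, 45 changed sign, 37 lost and 15 gained the call.

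The count for D14 against Untreated in U87 went from 3 to 1 with quantile normalization, 1 with median-ratio size factors and 0 with only the 2 compared groups, and ranged from 0 to 3 when 1 library was left out (1 without Untreated replicate 3, 0 without D14 replicate 2, 1 without D14 replicate 3). For D14 against D3 in U87 it went from 5 to 0 with only the 2 compared groups, at log2 fold changes that were the same, and for D28 against D14 from 5 to 4, as C3 lost its call. For D28WO against D28 in U87 it was 3 with the adjusted p alone, 2 with quantile normalization, 0 with size factors and 0 to 2 with 1 library left out (0 without D28 replicate 2, 2 without D28 replicate 3). In U251 it was 1 to 2 with 1 library left out (2 without D28 replicate 3). With the adjusted p alone the U251 counts became 7 for D14 against Untreated, 8 for D14 against D3, 8 for D28 against D14, 7 for D28WO against D14 and 5 for D28WO against D28, as the fold limit no longer applied.

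Values near the fold limit crossed it. CD59 in D28WO of U87 was -0.77 with quantile normalization and -0.98 with array weights, CD59 at D3 of U251 -0.92 with quantile normalization, CFI at D28 of U251 -0.97 and -0.98 with the same settings as CD59 of U87, and CD55 of U87 against D28 0.98 with size factors. CD55 at D14 of U251 passed with a pseudocount of 0.1 (1.01) and with array weights (1.02), and with quantile normalization CFB passed in U87 for D28WO against D28 (1.02) and in U251 for D28 against D14 (1.03). The cause was not tested.

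The values that changed sign were all of members that had not passed the threshold and lay close to 0. With quantile normalization CFI of U87 was -0.080 at D14, -0.15 at D28 and -0.18 in D28WO against Untreated, CD46 of U87 was 0.026 at D28, and against D28 the U87 withdrawal values were 0.018 (C1S), 0.087 (C3) and -0.036 (CFI), and CD59 of U251 was -0.017. With size factors C1R, C1S and CFI of U87 were -0.074, -0.058 and -0.10 at D14, CFI was -0.16 at D28, -0.19 in D28WO and -0.027 against D28, CD46 of U251 was -0.017 at D3, -0.089 at D14 and -0.070 at D28, and C1S of U251 was 0.062 against D28. With array weights C3 of U87 was 0.030 against D28, and CD46 of U251 was -0.013 at D14.

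With 1 library left out, CFI of U87 ranged from -0.46 to 0.025 at D3, -0.017 to 0.13 at D14, -0.061 to 0.099 at D28, -0.043 to 0.11 in D28WO, -0.13 to 0.026 for D28 against D14, -0.093 to 0.038 for D28WO against D14 and -0.052 to 0.11 for D28WO against D28. CD46 of U87 ranged from -0.13 to 0.036 at D28 and from -0.19 to 0.058 for D14 against D3, CD55 of U87 from -0.30 to 0.010 for D14 against D3, and C3 of U87 from -0.088 to 0.12 for D28WO against D28. In U251 CD46 ranged from -0.12 to 0.13 at D14, -0.21 to 0.037 for D14 against D3 and -0.075 to 0.17 for D28 against D14, and C1S from -0.092 to 0.061 for D28WO against D28.

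Replicate numbers did not pair the samples. Deviations of same-numbered libraries from their group means had correlations of -0.058 to 0.047 in U87 and -0.037 to 0.048 in U251. With the replicate number as a block, 2 in place of 3 members passed at D14 of U87, since CFB was 0.99 (limma, adjusted p = 0.0385), CFI of U87 was 0.013 for D28WO against D14, and no other call or sign of a member changed.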
